A study of Arabidopsis thaliana with 12 samples.

Results

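The jasmonate synthesis and response genes of Arabidopsis thaliana were followed through synchronized flower development. They comprised 41 loci, named by their locus identifiers from the pathway's known enzymes, receptor, repressors, transcription factors and output genes, out of 28327 loci on the array, with no threshold on measured values. Of these, 36 passed the filter on dim probes and were tested, with 20906 loci tested in all. The study used the ap1-1 cal-1 mutant line carrying pAP1:AP1-GR, in which the transcription factor APETALA1, fused to the hormone-binding part of the glucocorticoid receptor and expressed from its own promoter, becomes active when dexamethasone (DEX) is applied. Every sample carried the transgene and both mutations, so that inflorescences consisted of cauliflower-like masses of meristems until induction. Inflorescence tissue pooled from many plants was collected at 2, 4 and 8 days of daily DEX treatment and at day 0. The labels place the day 0 material before DEX induction, while the study's methods describe it as taken immediately after a mock solution; for the later days they give a collection time some hours after that day's treatment. No mock-treated sample of a later day was analysed here, so floral stage, time and repeated application of the solution cannot be told apart.

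Jasmonates are lipid hormones made from plastid linolenic acid. Lipases release the fatty acid, 13-lipoxygenases (LOX) oxidise it, allene oxide synthase (AOS) and allene oxide cyclase (AOC) turn it into 12-oxo-phytodienoic acid (OPDA), and reduction by OPR3 followed by beta-oxidation in peroxisomes gives jasmonic acid. JAR1 joins jasmonic acid to isoleucine, and the conjugate brings the F-box protein COI1 and the JAZ repressors together, after which the JAZ proteins are degraded and transcription factors such as MYC2 are released. In flowers, jasmonate is required for stamen filament elongation, anther opening and pollen maturation. In leaves it drives responses to wounding, and many synthesis and JAZ genes are themselves induced by the hormone and by mechanical damage.

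RNA of neighbouring days was hybridised together on 12 two-colour arrays: day 2 with day 0, day 4 with day 2 and day 8 with day 4, with 4 biologically independent sets of samples for each step. A value below is a log2 ratio of the later over the earlier day, and array values are listed for replicates 1 to 4 in that order. A gene was called at an adjusted p below 0.05 (limma, Benjamini-Hochberg over all loci tested) and at least 1.8-fold. Neighbouring steps share the day 2 or the day 4 extracts, so a high value in a shared extract raises one step and lowers the next, and the steps are not independent of each other. Between 55.7% and 73.6% of probes were well above background in a channel, and precision is limited by how many arrays there are. The scanner files of 2 arrays, replicates 3 and 4 of day 2 over day 0, did not match the series table used here. By their scanner files all arrays of day 2 over day 0 lay on 1 slide that held no other step, so that step and its slide cannot be told apart, although for those 2 arrays the slide of the values used is not established. Of 8 floral and meristem genes, 5 rose at day 2 over day 0 (8.47% of all loci), AP3 by 5.41 ± 0.12 (SE) and SEP3 by 3.19 ± 0.10. At that step 0 were called lower (limma, with 1 at an unadjusted p below 0.05). The meristem genes STM (-0.53), CLV3 (-0.34) and WUS (-0.08) were not called. At day 4 over day 2, 3 were called higher and 0 lower (limma, with 3 lower at an unadjusted p below 0.05). At day 8 over day 4, 1 was called higher and 3 lower. Over all loci, 3.23% and 5.58%, then 12.3% and 5.23%, were called higher and lower in these 2 steps. Among 4 leaf and root genes tested, PYK10, a root beta-glucosidase, was called at day 8 over day 4 (1.77) and no other at any step.

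Upregulation of jasmonate genes was widespread at day 2 and most widespread at day 8, with 7 members downregulated in between. At day 2 over day 0, 17 of the 36 tested members were upregulated and VSP2 was downregulated, against 13.9% of all loci tested that were called (8.47% higher, 5.42% lower). At day 4 over day 2, LOX2, AOC1 and VSP2 rose and 7 members fell, where 8.82% of all loci were called (3.23% higher, 5.58% lower). At day 8 over day 4, 26 members were called and all were higher, against 17.5% of all loci (12.3% higher, 5.23% lower), and 25 of the 26 had a positive ratio on all 4 arrays. MYC4 was lower at that step (-0.24, limma adjusted p = 0.0083) but under the fold minimum. It was the only member lower there at an unadjusted p below 0.05 (limma) with no fold minimum. The share of all loci at that looser threshold is not given here. Nor is the share of all called loci with 1 sign on all 4 arrays, so neither count has a background. With normexp background correction and loess on the 10 matching scanner files, 9, 2 and 9 members were called in the 3 steps, all of them among those above, where 5.94%, 1.95% and 3.09% of all loci were called under the same processing. The 2 second-step calls under that processing were JAZ1 and OPCL1, both lower. The median change of the 36 members was 0.55, -0.18 and 1.06 in the 3 steps, beside -0.10, 0.06 and -0.08 over all loci tested. Whether more RNA per cell or more cells with the RNA lay behind a change cannot be told apart in such bulk tissue.

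**Figure D1:**
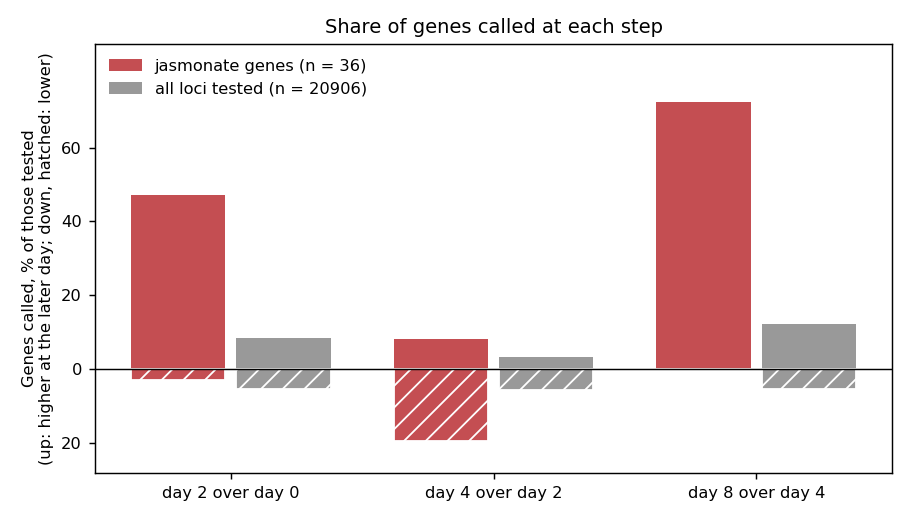
Percent of the 36 jasmonate genes (red) and of all loci tested (grey) called higher (upward) or lower (downward, hatched) at each step. The jasmonate genes reach 17, 3 and 26 genes called higher in the 3 steps.

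Since a gene that passes the filter through its bright day alone had to differ, the counts were also taken over the 29 members above background on every day. Of these, 15 were called higher and 1 lower at day 2 over day 0, 2 higher and 6 lower at day 4 over day 2, and 21, all higher, at day 8 over day 4. Among the 18760 loci above background on every day the corresponding shares were 7.17% and 4.45%, 2.87% and 4.63%, and 9.43% and 5.18%. DAD1 and MYB21 passed through day 8 alone and MYB57 through day 0 alone. The 5 members not tested were dim throughout: JMT, which methylates jasmonic acid, and the defensin gene PDF1.2a were above background in 0 of 20 channels, the jasmonoyl-isoleucine carboxylase CYP94C1 and the stamen factor MYB24 in 1 of 20, and JAZ4 in 4 of 20.

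**Figure D2:**
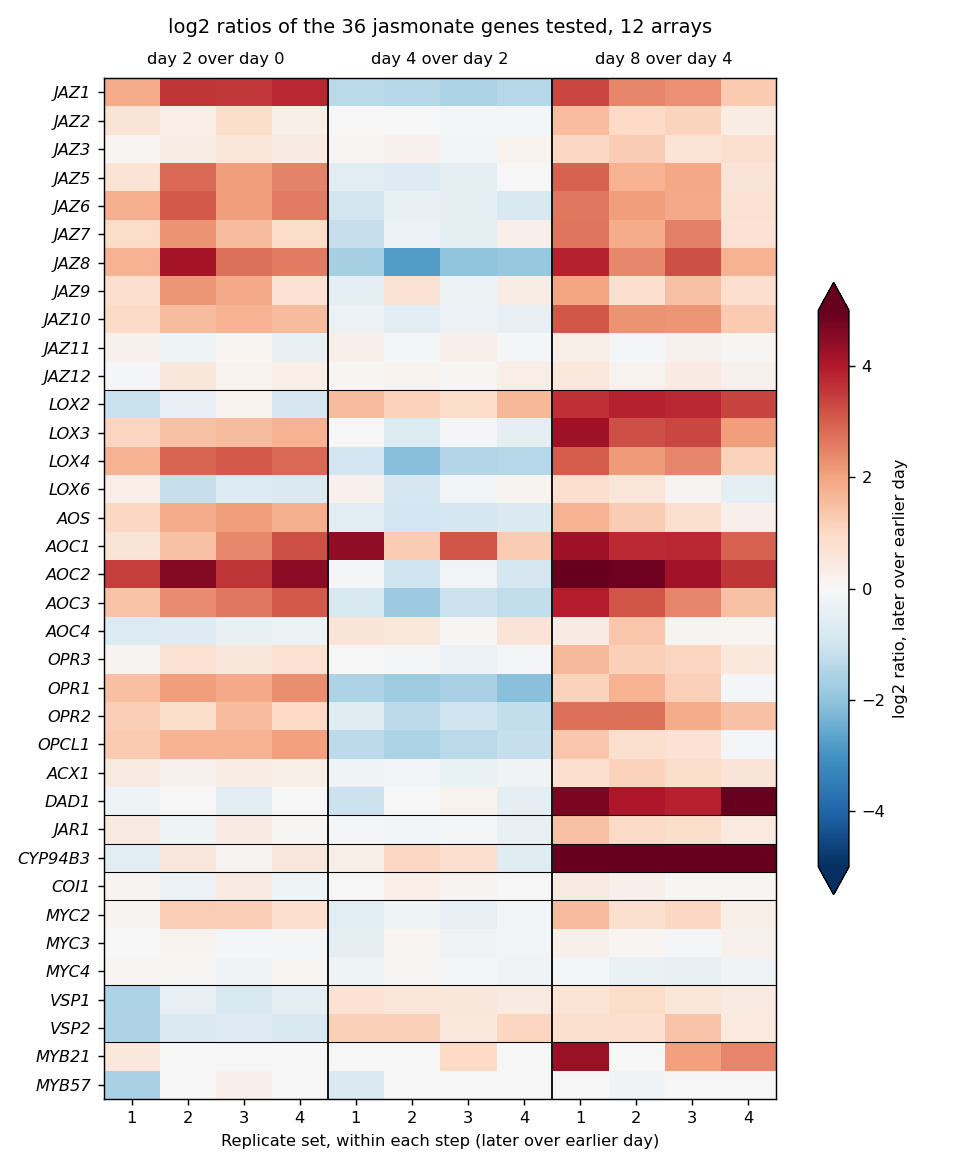
Log2 ratio of the later over the earlier day for each of the 36 tested jasmonate genes (rows, by role) on each of the 12 arrays (columns, by step and replicate); red is higher at the later day, blue lower, and colours saturate at 5 and -5. Most JAZ, LOX, AOC and OPR rows are red in the first step and the third and pale or blue in the second.

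The 13-lipoxygenases carry out the first oxidation. LOX4 (AT1G72520) stood at 1.74, 2.93, 3.08 and 2.83 on the 4 arrays of day 2 over day 0, at -0.96, -2.12, -1.46 and -1.42 for day 4 over day 2, and at 3.03, 2.13, 2.43 and 1.17 for day 8 over day 4. It thus rose, fell and rose again with no array of opposite sign (2.65, -1.49 and 2.19, each ± 0.26 SE). LOX3 (AT1G17420) rose 2.77-fold at day 2 over day 0, was at -0.30 with no call at day 4 over day 2, and rose by 3.21 ± 0.22 at day 8 over day 4, with arrays at 4.24, 3.22, 3.33 and 2.07. LOX2 (AT3G45140), the plastid enzyme that supplies most leaf jasmonate after wounding, took another course. Its first-step ratio was -0.54 with no call, and its second-step ratios were 1.58, 1.15, 0.91 and 1.65 (mean 1.32 ± 0.18, adjusted p = 0.00013). At day 8 over day 4 LOX2 reached 3.66, 3.86, 3.77 and 3.39, a 12.7-fold rise whose 4 arrays lay close together. LOX6 (AT1G67560), which acts in roots and in xylem contact cells, was called at no step (-0.55, -0.17 and 0.28) and was above background in 2 of 6 day 2 channels. LOX2, LOX3 and LOX4 thus stood at 4.45, 4.38 and 3.34 for day 8 over day 0 (SE 0.30 to 0.45), and LOX6 at -0.44.

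AOS (AT5G42650), which makes the unstable allene oxide, rose 3.25-fold at day 2 over day 0 (arrays from 1.03 to 2.099) and 2.03-fold at day 8 over day 4 (arrays from 0.26 to 1.73). In between its ratio was -0.78 ± 0.20, past the adjusted p threshold but under the fold minimum. Allene oxide cyclase, which fixes the stereochemistry of OPDA, is encoded by AOC1 to AOC4, and the members AOC1, AOC2 and AOC3 lie next to each other on chromosome 3 while AOC4 lies elsewhere. Neighbouring copies of high similarity can share probe signal, so their separate values are uncertain. The same holds for the adjacent OPR1 and OPR2 on chromosome 1 and VSP1 and VSP2 on chromosome 5.

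AOC2 (AT3G25770) had the highest ratio of any member in the first step, at 3.44, 4.60, 3.59 and 4.47 (16.3-fold, adjusted p = 3.2e-07). At day 4 over day 2 its ratios were -0.08, -0.98, -0.15 and -0.83, with no call, and at day 8 over day 4 they were 5.51, 4.88, 4.21 and 3.57 (23.3-fold). The sum of the steps put day 8 over day 0 at 8.05 ± 0.49. AOC3 (AT3G25780) rose, fell and rose, with 1.43, 2.36, 2.65 and 3.07, then -0.75, -1.802, -1.06 and -1.23, then 3.94, 3.13, 2.46 and 1.45. The second-step call of AOC3 (-1.21, adjusted p = 0.016) was lost without replicate 2 or replicate 3.

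AOC1 (AT3G25760) was called higher in all 3 steps. It was well above background in 0 of 2 day 0 channels, 2 of 6 day 2 channels, all 8 day 4 channels and all 4 day 8 channels. The first-step arrays read 0.64, 1.47, 2.39 and 3.22, but with day 0 at background the rise was only bounded, at least 1.43-fold higher at day 2 (fitted adjusted p = 0.0046), and the call was lost when replicates 3 and 4 of that step were left out. Bounds of this kind set the mean normalised signal of the bright day against the lowest signal counted as well above background on each array. They compare channels of different arrays and carry no error, so every "at least" here is approximate. For JOX3, a jasmonate turnover gene outside the members, the bound for day 8 over day 0 was 836-fold and the fitted ratio 326-fold. The next arrays read 4.44, 1.28, 3.16 and 1.29 at day 4 over day 2 and 4.26, 3.71, 3.77 and 2.93 at day 8 over day 4, where the rise was 12.7-fold. Day 4 was at least 9.63-fold and day 8 at least 147-fold higher than day 0. AOC4 (AT1G13280) was called at no step (-0.49, 0.47 and 0.51, each ± 0.19). In the first step and the third all AOC4 arrays lay below every array of AOC1, AOC2 and AOC3.

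**Figure D3:**
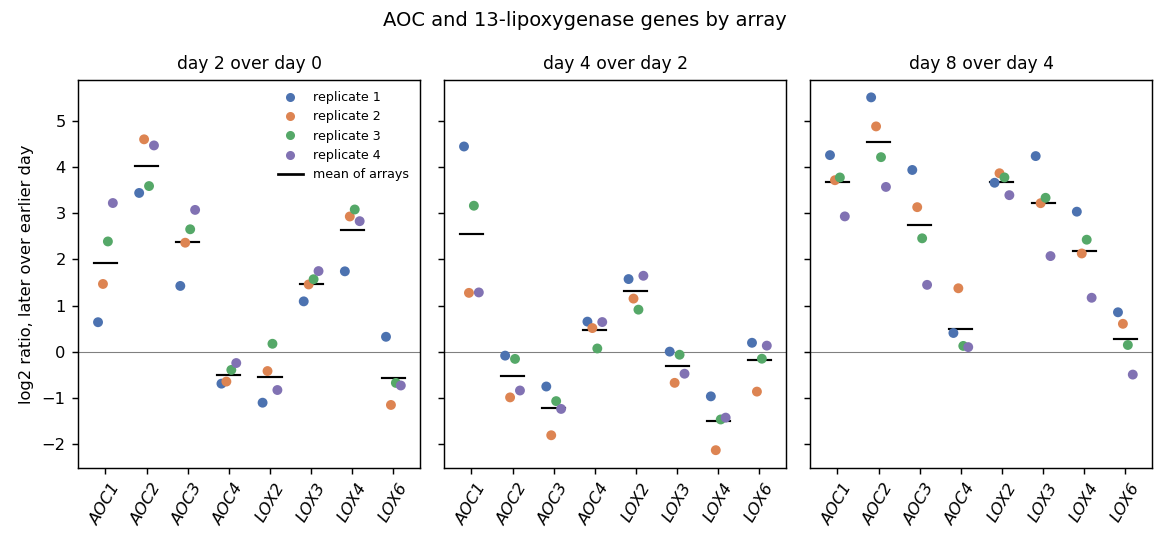
Log2 ratio of the later over the earlier day for the 4 AOC and the 4 lipoxygenase genes in the 3 steps; each point is 1 array, coloured by replicate, and the black line is the mean of the arrays. AOC2 lies between 3.44 and 4.60 in the first step and between 3.57 and 5.51 in the third, while AOC4 stays between -0.69 and 1.38 throughout.

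Of the OPDA reductases, OPR3 is the enzyme of jasmonate synthesis, and OPR1 and OPR2 are related cytosolic reductases. OPR3 (AT2G06050) was not called before day 8, when it rose 2.15-fold over day 4 (arrays from 0.54 to 1.62). OPR1 (AT1G76680) and OPR2 (AT1G76690) rose 3.90-fold and 2.25-fold at day 2 over day 0, with OPR1 at 1.52, 2.101, 1.90 and 2.34. Both fell at day 4 over day 2, OPR1 with -1.55, -1.77, -1.63 and -2.09 and OPR2 with -0.59, -1.30, -0.99 and -1.21. At day 8 over day 4 OPR2 rose by 2.21 ± 0.18 and OPR1 by 1.00 ± 0.26. OPR1 was above background in 1 of 8 day 4 channels and 2 of 4 day 8 channels, so its fall and its later rise were measured against a day near background. Replicate 4 of OPR1 was at -0.10 in the third step, and the call was lost when replicate 2 or 3 was left out.

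OPCL1 (AT1G20510), which activates the OPDA-derived acids with coenzyme A before beta-oxidation, rose with 1.33, 1.75, 1.74 and 2.06 in the first step and fell with -1.31, -1.59, -1.34 and -1.15 in the second. Its third-step ratio of 0.71 was under the fold minimum. ACX1 (AT4G16760), the acyl-CoA oxidase of the first beta-oxidation round, was called at day 8 over day 4 alone (1.85-fold). DAD1 (AT2G44810), the phospholipase whose loss delays anther opening, was well above background in 0 of 16 channels of days 0 to 4 and in all 4 channels of day 8. Its day 8 over day 4 ratios were 4.70, 4.04, 3.89 and 4.99, a rise of at least 13.4-fold. DAD1 passed the filter through day 8 alone, so its call at this step follows from detection and is no separate support. Across the 15 synthesis genes, 9 rose at day 2 over day 0 (8.47% of all loci). At day 4 over day 2, 2 rose and 5 fell (3.23% and 5.58% of all loci). At day 8 over day 4, 12 rose (12.3% of all loci), DAD1 among them. The median ratios were 1.47, -0.33 and 2.19.

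JAR1 (AT2G46370), the conjugating enzyme, was called at day 8 over day 4 alone, at 0.94 ± 0.10 (1.92-fold). CYP94B3 (AT3G48520), a cytochrome P450 that hydroxylates and so inactivates jasmonoyl-isoleucine, had the largest third-step ratio of the members, at 7.91, 5.32, 5.42 and 5.24 (5.97 ± 0.40, adjusted p = 2.5e-07). Its earlier ratios of 0.19 and 0.39 were not called, and it was above background in 1 of 2, 1 of 6 and 5 of 8 channels at days 0, 2 and 4. Without replicate 1 the third-step value was 5.34.

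The JAZ proteins repress jasmonate transcription factors and are degraded when the hormone is perceived. Of 11 JAZ genes tested, 7 rose at day 2 over day 0, 2 fell at day 4 over day 2 and 9 rose at day 8 over day 4. The corresponding shares over all loci were 8.47%, 5.58% and 12.3%. JAZ1 (AT1G19180) stood at 1.87, 3.56, 3.54 and 3.76, then at -1.34, -1.44, -1.58 and -1.43, then at 3.33, 2.43, 2.28 and 1.30. Its first-step rise was 9.10-fold, with replicate 1 well under the other arrays, and its fall of 1.45 ± 0.31 had 4 arrays within a narrow range. JAZ8 (AT1G30135), a repressor that lacks the usual degron, showed 1.72, 4.17, 2.74 and 2.58, then -1.65, -2.78, -2.02 and -1.88, then 3.86, 2.39, 3.21 and 1.74. Day 4 over day 0 stood at 0.72 with no call (adjusted p = 0.36), at 0.07, 1.39, 0.72 and 0.70 in the 4 sets. The second-step ratios of the other 9 JAZ genes, between -0.63 and 0.16, were not called.

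JAZ6 (AT1G72450) rose with 1.83, 3.07, 2.08 and 2.60 and JAZ5 (AT1G17380) with 0.70, 2.85, 2.098 and 2.50 at day 2 over day 0. JAZ7 (AT2G34600), JAZ9 (AT1G70700) and JAZ10 (AT5G13220) rose between 2.65-fold and 2.75-fold in that step. All 5 rose again at day 8 over day 4, JAZ10 most, with 3.10, 2.25, 2.21 and 1.32, and the others by 1.28 to 1.95. JAZ2 (AT1G74950) and JAZ3 (AT3G17860) were called at day 8 over day 4 alone (2.03-fold and 1.94-fold), with first-step ratios of 0.54 and 0.38 that lay under the fold minimum. JAZ11 (AT3G43440) and JAZ12 (AT5G20900) were called at no step and did not exceed 0.32 in any of them. On slide 3 (replicates 3 and 4) alone, the third-step calls of JAZ2, JAZ3, JAZ5 and JAZ7 were lost.

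The receptor gene COI1 (AT2G39940) was called at no step, with ratios of 0.02, 0.12 and 0.20 (each ± 0.11). Among the basic helix-loop-helix activators, MYC2 (AT1G32640) rose 1.83-fold at day 2 over day 0 and 1.91-fold at day 8 over day 4, close to the fold minimum. Its first-step arrays were 0.15, 1.24, 1.24 and 0.85, and that call was lost without replicate 2 or 3 and with the mean of its 3 probes. MYC3 (AT5G46760) and MYC4 (AT4G17880), which act beside MYC2, were called at no step and lay between -0.24 and 0.12.

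The output genes VSP1 and VSP2 had negative ratios on all 4 arrays of the first step. VSP2 (AT5G24770), a vegetative storage protein gene induced by the MYC branch in leaves, stood at -1.54, -0.72, -0.66 and -0.77 at day 2 over day 0 (mean -0.92 ± 0.17, adjusted p = 0.0007). This call was lost without replicate 1 and when each array was centred on its median. VSP2 then rose with 1.18, 1.17, 0.54 and 1.06 at day 4 over day 2 and 1.86-fold at day 8 over day 4, and day 4 over day 0 stood at 0.07. VSP1 (AT5G24780), its neighbour, had ratios of -0.80, 0.58 and 0.67 that passed the adjusted p threshold but not the fold minimum. Of the stamen factors MYB21, MYB24 and MYB57, which act in filament growth downstream of jasmonate, MYB21 (AT3G27810) rose at day 8 over day 4 with 4.31, 0.02, 2.07 and 2.46. The array near 0 was replicate 2, the array scanned apart from the others with 1340 outlier-marked probes, where the other arrays with matching scanner files had 23 to 110. The median of the members on that array was 1.27, between those of the other arrays of the step. Whether the scan had a part in the MYB21 value was not tested. MYB21 was above background in 3 of 4 day 8 channels and in 1 of 16 channels of days 0 to 4. It passed the filter through day 8 alone, so its call at this step follows from detection and is no separate support. On slide 2 alone that call was lost. At day 0 it was above background in 0 of 2 channels, and day 8 was at least 2.54-fold higher than day 0. MYB57 (AT3G01530) was called at no step.

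**Figure D4:**
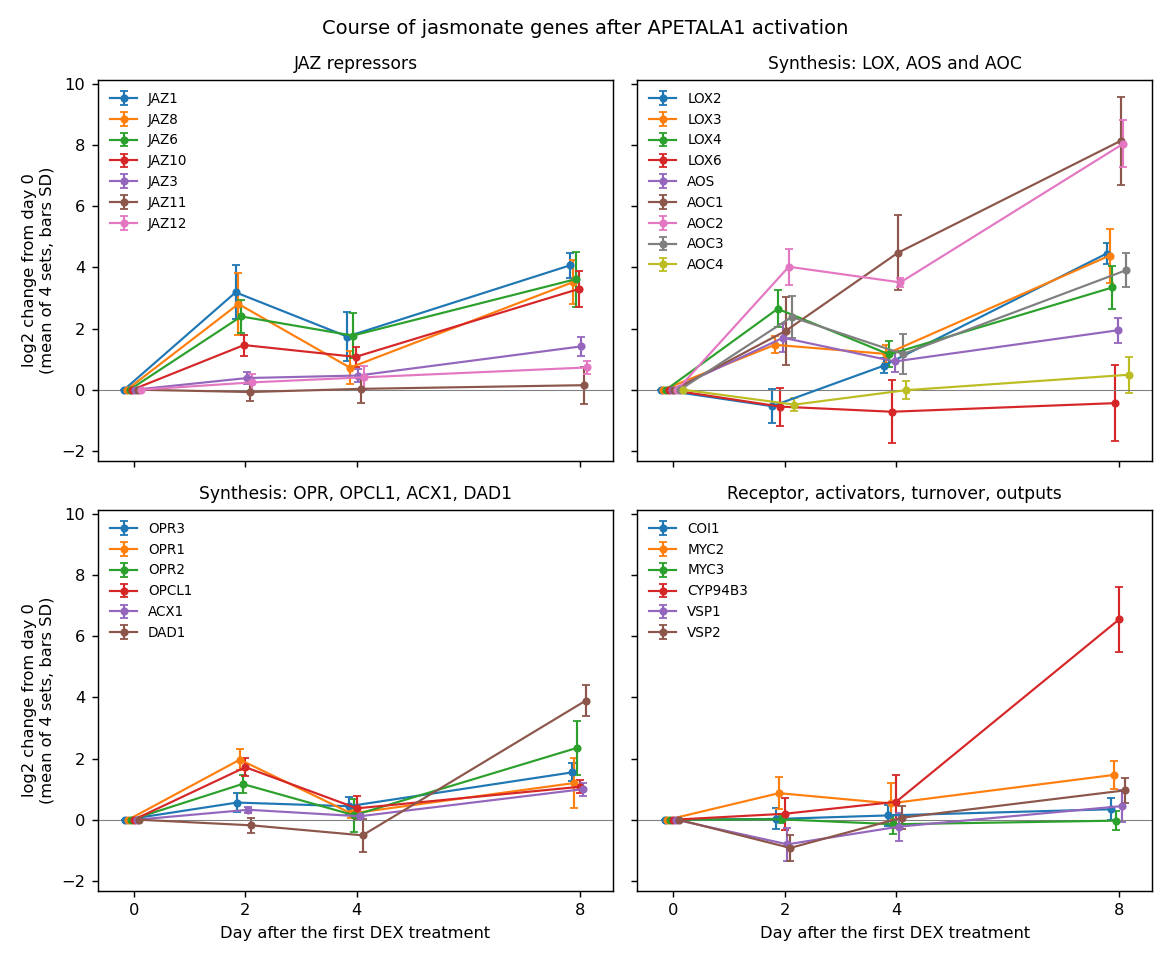
Change from day 0 (log2, mean of 4 sets, error bars SD) of jasmonate genes at days 2, 4 and 8, in 4 panels by role; points are shifted slightly along the day axis for legibility. JAZ1 reaches 3.19, 1.74 and 4.07 and AOC2 4.02, 3.51 and 8.05 at days 2, 4 and 8, while COI1, MYC3 and JAZ11 stay near 0.

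Over the whole course, 27 of the 36 members were called at day 8 over day 0 and all 27 were higher, where 26.2% of all loci were called (14.9% higher, 11.2% lower). The median of the members was 1.75, and that of all loci tested -0.11. At day 4 over day 0, 10 members were called, all higher (10.1% of all loci called, 6.59% higher, 3.53% lower): JAZ1, JAZ5, JAZ6, JAZ9, JAZ10, LOX3, LOX4, AOS, AOC1 and AOC2. This count was the least stable, since it was 2 without replicate 2 and 2 without replicate 3, with AOC1 and AOC2 called throughout. With the replicate number as a fixed block it was 7, and the calls of JAZ5, LOX4 and AOS were lost. By the F test over the steps, with at least 1.8-fold in a step, 27 members were called, against 26.0% of all loci. The 9 not called were JAZ11, JAZ12, LOX6, AOC4, COI1, MYC3, MYC4, VSP1 and MYB57. Of these, VSP1, JAZ12, AOC4 and MYC4 passed the F test (adjusted p of 9.6e-05, 0.0079, 0.011 and 0.024) but not the fold minimum.

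The sets differed in the size of these changes. Replicate 1 had the lowest first-step ratio of the 4 arrays for 24 of the 36 members, against 23.6% of all loci with a value on every array. In the third step replicate 1 was highest for 28 members and replicate 4 lowest for 27, against 22.6% and 29.9% of all loci. The median of the members was 1.67, 1.27, 1.32 and 0.64 on the 4 arrays of day 8 over day 4, and that of all loci lay between -0.12 and -0.04. For JAZ1 and JAZ5, replicate 1 was the lowest array of the first step, at 1.87 and 0.70, and the highest of the third, at 3.33 and 2.95. The sums over the 3 steps, by set, lay between 3.63 and 4.55 for JAZ1 and between 3.07 and 3.96 for JAZ5. Genes with the same order of replicate 1 differed in this. The sums of JAZ6, JAZ10 and LOX3 had an SD of 0.90, 0.58 and 0.88, against 0.55, 0.34 and 0.28 in the first step. For AOS and AOC3 the SD was 0.40 and 0.56, against 0.46 and 0.70. By slide, 25 members were called at day 8 over day 4 on slide 2 alone (replicates 1 and 2) and 15 on slide 3 alone, with 16.7% and 15.1% of all loci called.

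Several calls were lost when 1 set was left out, some with little change in value. Without replicate 2, JAZ7 at day 2 over day 0 stood at 1.07, MYC2 at that step at 0.72 and AOC3 at day 4 over day 2 at -1.07, none of them called. Without replicate 3, the same steps gave 0.73 for MYC2 and -1.20 for AOC3, and JAZ1 at day 4 over day 2 stood at -1.41 (adjusted p = 0.051). Without replicate 1, VSP2 at day 2 over day 0 stood at -0.70. At day 8 over day 4, AOS (0.80), JAR1 (0.82) and MYC2 (0.74) fell under the fold minimum without replicate 1, ACX1 (0.78) without replicate 2 and VSP2 (0.68) without replicate 3, and OPR1 stood at 0.68 without replicate 2 and 0.93 without replicate 3. At day 8 over day 0 the calls of OPR1 (0.72 to 1.29), OPCL1 (1.05 and 1.14), JAR1 (0.82), MYC2 (1.26 and 1.28), VSP2 (0.83 and 0.75) and MYB21 (2.16 and 1.99) were lost without 1 set or another.

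Another 36 genes of the pathway stood on the array and 34 were tested: further enzymes of synthesis and turnover, repressors, activators and outputs. Of these, 12 rose and 1 fell at day 2 over day 0, against 8.47% and 5.42% of all loci tested. At day 4 over day 2, 1 rose and 6 fell (3.23% and 5.58% of all loci). At day 8 over day 4, 18 rose and 1 fell (12.3% and 5.23% of all loci). Each count of 1 was 2.94% of the list, under the share over all loci. ERF1 and ORA59, activators of the branch shared with ethylene, rose by 7.93 ± 0.36 and 2.84 ± 0.31 in the first step and fell by 5.26 and 3.47 in the second. In the third step ERF1 rose by 2.12 and ORA59 fell by 1.23. JAV1, a VQ protein that represses jasmonate defence, rose by 5.19 and then fell by 2.44, and the defensin gene PDF1.2b rose by 4.64 at day 2 over day 0. MYC5, a MYC2 relative that acts in stamens, ran the other way, at -2.25 in the first step and 1.54 in the second, both called.

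JOX4, an oxygenase that hydroxylates jasmonic acid, CYP94B1, the paralogue of CYP94B3, and the repressor gene JAZ13 were above background in 0 of 2 day 0 channels and in all 4 day 8 channels. At day 4, JOX4 was above background in 6 of 8 channels, and CYP94B1 and JAZ13 were so in 1 of 8 each. All 3 were called at day 8 over day 4. By the same approximate bounds, day 8 over day 0 was at least 240-fold for JOX4, 42.4-fold for CYP94B1 and 17.3-fold for JAZ13. All 3 passed the filter through the days on which they were high, so their calls follow in part from detection. Of the 7 turnover genes of the list that were tested, JOX4 and CYP94B1 among them, 6 rose at day 8 over day 4. At day 2 over day 0, 4 rose. Over all loci, 12.3% and 8.47% rose in those steps.

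The median of 10 genes of the early response to touch and wounding had the sign of the jasmonate median in each step. Of these genes, 8 rose at day 2 over day 0 (8.47% of all loci) and 7 fell at day 4 over day 2 (5.58%). At day 8 over day 4, 8 rose and 1 fell (12.3% and 5.23% of all loci). The second-step median was -2.35 for these genes and -0.18 for the 36 members. The calmodulin-like TCH3 was at 4.00, -2.84 and 1.50, the transcription factor gene WRKY40 at 5.36, -3.39 and 2.69, and ZAT12 at 4.67, -2.07 and 2.46. Other genes of the list took other courses. CML39 was at 3.10, 0.79 and 3.25, CBF2 at 0.13, 0.80 and 1.29, and ERF6 at 2.77, -2.62 and -1.14. TCH2 was called at no step (-0.36, -0.66 and 0.27). The median of the 10 genes was 2.68, 3.78, 4.33 and 3.88 on the arrays of day 2 over day 0, lowest on replicate 1. It lay between -2.62 and -1.71 at day 4 over day 2, and at 2.56, 1.54, 1.24 and 1.06 at day 8 over day 4, highest on replicate 1 and lowest on replicate 4. The part of a touch or wound response in the jasmonate values was not tested.

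Of 8 stamen and tapetum genes tested, 0 were called at day 2 over day 0 by limma (1 at an unadjusted p below 0.05), SPL/NZZ and TGA9 rose at day 4 over day 2, and 6 rose and ROXY1 fell at day 8 over day 4. Over all loci, 12.3% rose and 5.23% fell at day 8 over day 4. SPL/NZZ was above background in 0 of 2 channels at day 0, 1 of 6 at day 2 and 8 of 8 at day 4. DYT1, AMS and QRT2 were above background in no channel of days 0 and 2, in 1 of 8, 1 of 8 and 0 of 8 day 4 channels, and in 4, 2 and 2 of 4 day 8 channels. These 4 genes passed the filter through the days on which they were high, so the timing of their calls follows in part from detection. The part of stamen tissue in the day 8 values was not tested. Of 4 genes often used as references, ACT2 and PP2AA3 were called at no step, and UBQ10 rose by 0.91 at day 8 over day 4. GAPC1 was called in each step, higher, lower and higher. It was above background in 0 of 2, 5 of 6, 3 of 8 and 4 of 4 channels at days 0, 2, 4 and 8. At day 2 it was at least 5.01-fold higher than at day 0. GAPC1 too passed the filter through the days on which it was high.

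**Figure D5:**
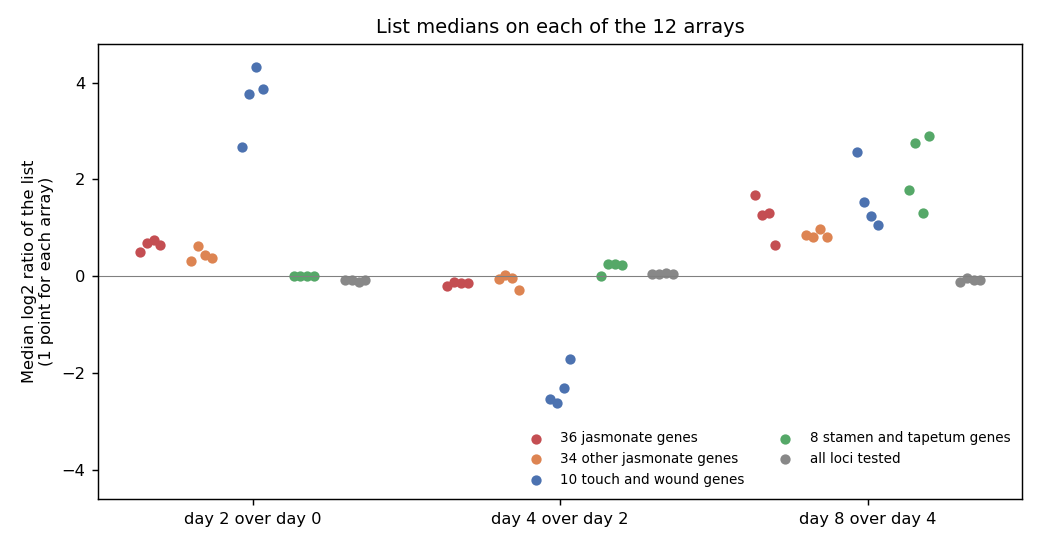
Median log2 ratio of each gene list on each of the 12 arrays (1 point for each array, replicates 1 to 4 from left to right), by step. Touch and wound genes lie between 2.68 and 4.33 in the first step and between -2.62 and -1.71 in the second, and the jasmonate genes lie above all loci in the first step and the third. Of the 8 stamen and tapetum genes, 4 were dim on the earlier days.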

How the data were processed

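Inflorescence RNA (16 extracts, 4 sets) was hybridised to custom two-colour Agilent arrays designed on TAIR annotation version 8. The authors scanned them and processed them with Feature Extraction 10.5.1.1. The values used are the deposited log10 ratios of Cy5 over Cy3, as a table of the whole series, which were turned by the dyes of the labels and multiplied to log2 of the later over the earlier day. The deposited scanner intensities gave background, outlier marks, slides and an alternative processing. For 10 of 12 arrays at least 99.98% of probes equalled the table within 0.0001 (log10); the other 2 (replicates 3 and 4 of day 2 over day 0) shared 16.3% and 20.2%, and their background marks were not used, so detection at day 0 rests on 2 channels.

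Probes well above background in at least 50% of channels of at least 1 day were kept (28247 of 43643; 20906 loci, 1158 probes with no locus), 718 outlier-marked values among them were left out, and a locus was read from its brightest probe. One fit with limma 3.58.1 (R 4.3.3) over all 12 arrays had a coefficient for each step and a dye term for each probe, with an intensity trend in eBayes and 8 residual degrees of freedom. Net changes are sums of coefficients. Their SE and p take the arrays as independent, since the main fit has no term for the sets or the shared extracts. The study's own error-model averages and cluster assignments were not used. The script was tested on simulated data. Symbols follow current usage; all 41 loci were found in RefSeq's TAIR10.1 table, which served for names and neighbours alone. Both extracts of an array come from 1 set, so each ratio is paired within its set; deviations of same-numbered arrays correlated at -0.13 to 0.22. Members, gene lists and tests were chosen with earlier results of these data known. Named array by array were, for each step, the 10 called members of largest change with 1 sign on every array. Other pathway genes are limited to the 3 largest in each direction and step, and further members complete role groups. Array values of MYC2, VSP2 (first step) and MYB21 were chosen after their values were seen. So were TCH2, TCH3, WRKY40, ZAT12, CML39, CBF2, ERF6, JOX3, AP3, SEP3, STM, CLV3, WUS and the reference genes. The genes whose sums by set are compared were also chosen in that way. Alternatives covered the source of ratios, centring, filters, dye term, probe choice, slide, replicate block and leaving out each replicate; 2 more (exact 0 ratios as missing, and the table without the 2 arrays above) were chosen after seeing the data.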

Additional observations from a re-analysis of the deposited data

Results flagged for a closer look

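Over 108 sets of 4 arrays (36 genes, 3 steps), 9 held an array far from the other 3, where chance alone gives about 1 in 20. JAZ1 at day 2 over day 0 had replicate 1 at 1.87 with the others between 3.54 and 3.76, and VSP2 at that step had replicate 1 at -1.54 with the others between -0.77 and -0.66. CYP94B3 at day 8 over day 4 had replicate 1 at 7.91 with the others between 5.24 and 5.42. MYC3 at day 2 over day 0 had replicate 2 at 0.19 with the others between -0.07 and -0.03. The remaining 5 concern dim probes whose other ratios were mostly given as exactly 0 or lay near it. MYB21 stood at 0.54 on replicate 1 of day 2 over day 0 and at 1.01 on replicate 3 of day 4 over day 2. MYB57 stood at -1.61 on replicate 1 of day 2 over day 0, at -0.74 on replicate 1 of day 4 over day 2 and at -0.17 on replicate 2 of day 8 over day 4.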

How the results depend on the processing

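The source of the ratios mattered most. With normexp background correction and loess on the 10 matching scanner files, 9, 2 and 9 members were called in the 3 steps, 1 at day 4 over day 0, 12 at day 8 over day 0 and 13 over the series; all of these were also called with the series table. With all 12 scanner files as deposited, the 2 that do not match included, the counts were 0, 0, 6, 0, 3 and 9, and AOC1 at day 2 over day 0 (-0.03685), OPR1 at day 8 over day 0 (-0.07765) and MYB21 at day 8 over day 0 (-0.004147) changed sign. The cause was not tested. On slide 3 alone, 15 members were called at day 8 over day 4, and on slide 2 alone 25, where 15.1% and 16.7% of all loci were called. With the 10 matching files, 5.94%, 1.95% and 3.09% of all loci were called in the 3 steps. For the other counts of this paragraph the share of all loci under the same setting is not given. A loss of calls among the members cannot be told apart there from one over all loci. Day 4 over day 0 gave 5 calls with no filter on dim probes and 4 without replicates 3 and 4 of day 2 over day 0, which left 15 higher and 2 lower at day 2 over day 0. Leaving out each replicate in turn gave 17 to 19, 8 to 10 and 23 to 27 calls in the 3 steps, 2 to 12 at day 4 over day 0, 23 to 26 at day 8 over day 0 and 26 to 28 over the series. The replicate block gave 18, 10 and 26 calls in the 3 steps as a fixed term, 7 at day 4 over day 0 and 26 at day 8 over day 0. The dye term, outlier marks, intensity trend, probe choice and slide term kept each count within 1.5 times the main one. Detection at day 0 rests on 2 channels, which limits every statement on AOC1, DAD1 and MYB21.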
